A study of Mus musculus with 9 samples.

Results

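The 39 genes described here are all genes on the array whose symbol begins with Nduf, the family name for the nuclear-encoded subunits and assembly factors of respiratory complex I. They are 39 of 12393 genes with an array signal, and 74 probe sets measured them. Another 8 probe sets that carry an Nduf symbol together with a second symbol were left out. Where several probe sets measured 1 gene, the one with the highest mean log2 signal over the 9 arrays stood for it. With tumours and muscles weighted equally in that mean, another probe set stood for Ndufb11 and Ndufv2 alone. The samples were 6 mouse tumours labelled as alveolar rhabdomyosarcoma, a cancer with features of the skeletal muscle lineage, and 3 skeletal muscles labelled as wild-type. The genotype that gave rise to the tumours, the strain, the age and the muscle sampled are unknown from the labels and notes used here. Nothing in the labels says whether the samples of a group came from separate animals, so p-values measure only the spread between these samples.

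Complex I is the entry point of the mitochondrial respiratory chain. It takes electrons from NADH through flavin and iron-sulfur clusters in an arm that reaches into the matrix, passes them to ubiquinone, and pumps protons through an arm set in the inner membrane. A conserved catalytic core does this chemistry, accessory subunits surround it, and assembly factors build it without remaining part of it. Skeletal muscle, above all its oxidative fibres, is rich in the complex. The symbol is not a perfect guide: the product of Ndufa4 is now placed in complex IV, and 5 of the genes are assembly factors, which leaves 33 subunits. Ndufs6, Ndufa11, Ndufb4, Ndufa4l2 and the core subunits encoded by mitochondrial DNA were not analysed here.

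Nduf signals were lower in the tumours as a group, and none of the 39 genes was called higher. Signals are MAS5 values in arbitrary units, scaled so that all arrays have the same trimmed mean, and differences are tumour minus muscle means of log2(signal + 16) from limma, called at a Benjamini-Hochberg adjusted p under 0.05 over all 12393 genes. By this rule 23 of 39 Nduf genes (59%) were lower in tumours, where 9.09% of all genes were. The count called higher was 0, where 8.66% of all genes were. Most Nduf genes are bright, and calls were more frequent among bright genes. With only the 6197 genes of at least median brightness tested, 23 Nduf genes were lower, where 15.7% of those genes were. Ndufaf7 and Ndufb1 were too dim for that fit. In the fit over all genes only Ndufaf3 and Ndufaf7 had differences above 0 (0.08 and 0.20), and neither had an unadjusted limma p under 0.05. An exact rank-sum test could call no gene in either direction, since with 6 against 3 arrays its smallest adjusted p over all genes was 0.11. The median difference of the 39 genes was -1.39 beside 0.10 for all genes, and 37 of the 39 lay below 0, as did 44.4% of all genes. Fold changes of the called genes on this scale ran from 2.39 to 7.47, and their tumour means were 14.9% to 44.2% of the muscle means. Because these are bulk tissues, fewer cells of a type and less RNA per cell cannot be told apart.

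In 23 genes every tumour signal lay below every muscle signal, which was so for 11.0% of all genes. Of these genes 21 were called, and the uncalled ones were Ndufa1 and Ndufb11. Ndufs7 and Ndufv1 were called although tumour 1 reached into the muscle range. The number of called genes rests on the scaling and on the muscles. The deposited values of muscle 1 and muscle 3 had to be multiplied by 1.6995 and 3.5493 to reach the common trimmed mean, and the other arrays by 1. Without that scaling 5 Nduf genes were called lower (2.98% of all genes), namely Ndufaf1, Ndufaf5, Ndufb10, Ndufb2 and Ndufs1, the median Nduf difference was -0.53 and the median of all genes was 0.79. Without muscle 1, 12 were called lower (6.37% of all genes), and without muscle 3, 14 (4.90% of all genes), all of them among the 23.

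**Figure D1:**
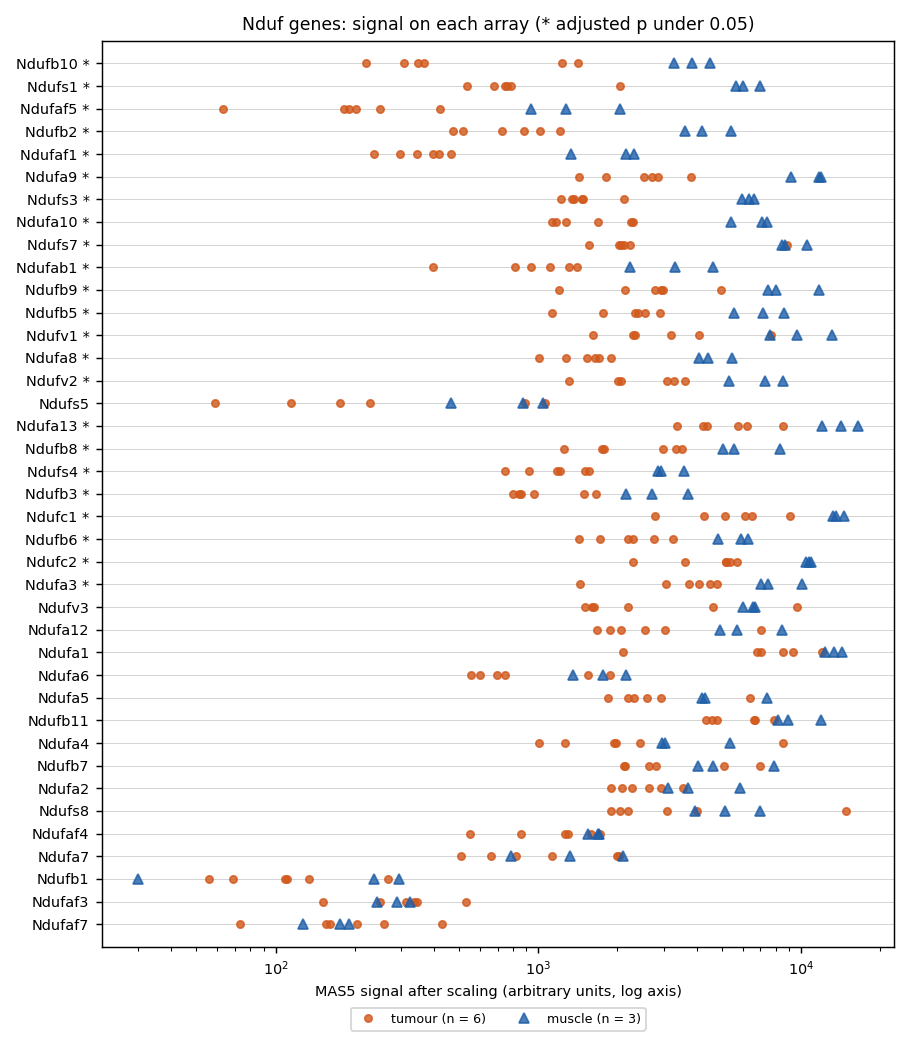
Scaled MAS5 signal (arbitrary units, log axis) of each of the 39 Nduf genes on each array, ordered by the tumour minus muscle difference; circles are the 6 tumours, triangles the 3 muscles, and an asterisk marks an adjusted p under 0.05. In the top 8 rows all circles lie left of all triangles, while in the rows at the bottom they mix. Signals of different genes come from different probe sets and are not to be compared with each other.

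Promoter windows, 250 bases before to 50 after the gene's start, were found for 36 of the 39 genes in RefSeq (GRCm38.p6), with no entry for Ndufs1, Ndufb9 and Ndufa2. They were searched on both strands for 4 motifs of factors known to drive respiratory genes. The NRF1 motif CGCATGCG lay in 3 of the 36 (8.33%), in Ndufa8, Ndufaf4 and Ndufaf5, beside 3.51% of array genes with a window. The YY1 motif AAGATGGCG lay in 4 (11.1%), in Ndufa9, Ndufc1, Ndufs4 and Ndufs7, beside 2.82%. The oestrogen-related receptor motif AAGGTCA lay in 2 (5.56%), in Ndufb2 and Ndufs5, beside 4.35%, and the GABPA motif CCGGAAGT in 1 (2.78%), in Ndufs3, beside 7.24%. These are counts of 1 to 4 genes, and both called and uncalled genes were among them. At least 1 of the 4 motifs was found for 10 of the 36 genes (27.8%) and for 16.7% of array genes with a window. A match describes letters in a window and is not evidence of binding.

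For each motif, the window of the called gene with the lowest tumour minus muscle difference is printed on the gene's strand, to show where the letters sit. Capitals mark the motif, and in these windows no motif overlapped another. The windows are Ndufaf5 at chr2:140170396-140170695 (plus strand, NRF1 motif at bases 268 to 275 of the window), Ndufa9 at chr6:126849095-126849394 (minus strand, YY1 motif at bases 280 to 288), Ndufb2 at chr6:39592315-39592614 (plus strand, receptor motif at bases 70 to 76) and Ndufs3 at chr2:90904672-90904971 (minus strand, GABPA motif read from the opposite strand at bases 251 to 258).
Ndufaf5: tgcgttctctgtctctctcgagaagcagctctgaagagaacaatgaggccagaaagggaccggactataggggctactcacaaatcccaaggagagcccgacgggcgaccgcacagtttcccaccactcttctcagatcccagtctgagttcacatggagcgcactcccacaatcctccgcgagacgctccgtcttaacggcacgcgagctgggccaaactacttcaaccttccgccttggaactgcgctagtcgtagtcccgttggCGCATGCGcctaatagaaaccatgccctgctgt
Ndufa9: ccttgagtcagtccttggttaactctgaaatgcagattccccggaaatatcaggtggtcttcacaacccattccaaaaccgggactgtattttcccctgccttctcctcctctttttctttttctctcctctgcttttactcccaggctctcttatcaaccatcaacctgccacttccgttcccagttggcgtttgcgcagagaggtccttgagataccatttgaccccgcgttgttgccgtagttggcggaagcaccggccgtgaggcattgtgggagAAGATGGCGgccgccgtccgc
Ndufb2: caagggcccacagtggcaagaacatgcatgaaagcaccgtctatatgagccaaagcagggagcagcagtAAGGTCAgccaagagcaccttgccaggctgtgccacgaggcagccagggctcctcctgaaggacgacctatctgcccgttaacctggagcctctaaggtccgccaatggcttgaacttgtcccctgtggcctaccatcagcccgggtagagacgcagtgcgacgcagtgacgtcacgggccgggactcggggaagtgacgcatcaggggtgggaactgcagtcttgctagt
Ndufs3: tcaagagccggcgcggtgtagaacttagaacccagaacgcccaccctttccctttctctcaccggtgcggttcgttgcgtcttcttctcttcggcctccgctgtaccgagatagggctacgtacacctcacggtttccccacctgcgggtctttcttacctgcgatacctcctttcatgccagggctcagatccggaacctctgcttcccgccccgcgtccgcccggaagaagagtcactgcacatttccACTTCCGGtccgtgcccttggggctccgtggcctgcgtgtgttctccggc
The NRF1, YY1 and GABPA matches lie in the 50 bases after the start, whereas the receptor match in Ndufb2 lies far upstream in its window. All 4 genes are called lower in the tumours, with the values given below.

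Of the catalytic core, 6 nuclear subunits were measured, 5 were called lower, and in 3 of these every tumour lay below every muscle; the median of the 6 differences was -1.76. Ndufs1, the large subunit that carries iron-sulfur clusters near the NADH end, had tumour signals from 533 through a median of 754 to 2038 and muscle signals of 5658, 6027 and 6949. Tumour 2, the highest, was still far below the lowest muscle. The means were 924 ± 553 (SD, n = 6) and 6211 ± 665 (SD, n = 3), a difference of -2.87 ± 0.39 (SE, adjusted p = 0.00023). Ndufs3, at the base of the matrix arm, ran from 1220 through 1413 to 2119 in tumours and was 6609, 5939 and 6328 in the muscles. Both groups were tight and clearly apart. Its means were 1498 ± 319 and 6292 ± 337 (SD, n = 6 and 3), a difference of -2.08 ± 0.30 (SE, adjusted p = 0.00034). Ndufs1 and Ndufs3 were called in every fit that left out 1 array.

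Ndufv1, which binds NADH and the flavin, ran from 1616 through 2770 to 7671 in tumours and was 13132, 7618 and 9618 in the muscles. Tumour 1 alone reached the muscle range. Its difference was -1.67 ± 0.46 (SE, adjusted p = 0.021), with adjusted p = 0.1 without muscle 1 and 0.083 without muscle 3. Its iron-sulfur partner Ndufv2 ran from 1314 through 2576 to 3608 and was 8536, 5306 and 7261 in muscle, with no overlap. That difference was -1.51 ± 0.38 (SE, adjusted p = 0.014), with adjusted p = 0.073 without muscle 1 and 0.071 without muscle 3. All 3 probe sets of Ndufv2 were called lower, at -1.51, -1.98 and -2.66.

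Ndufs7 carries the last iron-sulfur cluster before ubiquinone. Its brightest probe set read 8810 in tumour 1 and 1563 to 2238 in the other tumours, against 8437, 8704 and 10499 in muscle. The high value was thus confined to 1 tumour on this probe set. The difference was -1.84 ± 0.48 (SE, adjusted p = 0.016), with adjusted p = 0.059 without muscle 2 and 0.084 without muscle 3, and -2.20 (adjusted p = 7.5e-05) without tumour 1. The other Ndufs7 probe set read 1209 in tumour 1, 791 to 2177 over all tumours, and 8493, 11244 and 12665 in muscle. There the groups lay apart in every array, with a difference of -2.82 (adjusted p = 0.00022 over all probe sets). The brighter Ndufv1 probe sets read 7671 and 6926 in tumour 1 while the dimmest read 1524, with a difference of -1.82 on the last (adjusted p = 0.0034).

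Ndufs8, the remaining core subunit measured and a neighbour of Ndufs7 in the chain of clusters, was not called. Tumour 1 read 14805 and the other tumours 1892 to 4000, against 7007, 3941 and 5134 in muscle. Tumour 1 exceeded every muscle, and most other tumours lay below them. The difference was -0.61 ± 0.57 (SE, adjusted p = 0.55), and without tumour 1 it was -1.04 (adjusted p = 0.037). The 6 probe sets of Ndufs8 gave differences from -0.82 to 0.21, none of them called, and on each of them tumour 1 exceeded the median of the other tumours, by 1.49 to 6.76 times.

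Of 9 listed accessory subunits of the matrix arm, 8 were measured, 2 were called lower, Ndufa9 and Ndufs4, and the median difference was -1.08. Whether the arms differ was not tested. Ndufa9, which sits at the junction of the arms and binds a nucleotide, ran from 1429 through 2610 to 3806 in tumours and was 9129, 11726 and 11886 in muscle. The groups did not overlap, with means of 2517 ± 836 and 10914 ± 1547 (SD, n = 6 and 3) and a difference of -2.17 ± 0.37 (SE, adjusted p = 0.0011). Ndufs4, whose loss in people and mice causes Leigh-like disease, ran from 748 through 1192 to 1565 and was 3582, 2846 and 2940 in muscle. These did not overlap either, and the difference was -1.42 ± 0.32 (SE, adjusted p = 0.0075). The call held in every fit that left out 1 array. It was lost without scaling (adjusted p = 0.43) and with only tumours 1 to 3 and the muscles (0.053). Of the dimmer Ndufs4 probe sets, 1 was called at -1.99 and 1 at -0.97 was not (adjusted p = 0.0064 and 0.078 over all probe sets).

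Ndufv3, Ndufa12 and Ndufa6 were the uncalled genes nearest the threshold. Ndufv3, a small subunit at the NADH end, read 9616 in tumour 1 and 4631 in tumour 4 but 1511 to 2200 in the other tumours, against 6671, 6546 and 6010 in muscle. Ndufa12, near the ubiquinone site, read 7067 in tumour 1 and 1666 to 3037 in the others, against 8446, 4913 and 5710. Ndufa6 read 1551 and 1872 in tumours 1 and 4 and 554 to 745 in the others, against 2155, 1350 and 1762. In each gene tumours 2, 3, 5 and 6 were below every muscle, and tumour 1 was not. The differences were -1.24 ± 0.54, -1.21 ± 0.44 and -0.94 ± 0.42 (SE), with adjusted p = 0.14, 0.077 and 0.15. Without tumour 1, Ndufv3 was called at -1.60 (adjusted p = 0.0066) and Ndufa12 at -1.49 (adjusted p = 0.0033).

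The other uncalled subunits of this arm were Ndufa5 at -0.88 ± 0.41, Ndufa2 at -0.70 ± 0.34 and Ndufa7 at -0.31 ± 0.48 (SE, adjusted p = 0.17, 0.19 and 0.74). Ndufa5 read 6366 in tumour 3 and 1836 to 2938 in the other tumours, against 7431, 4317 and 4187 in muscle, and without tumour 3 its difference was -1.12 (adjusted p = 0.047). Ndufa7 had 5 probe sets with differences from -0.37 to 0.33 and none called.

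Accessory subunits of the membrane arm made up most of the calls. Of 21 listed, 19 were measured, 14 were called lower, in 16 every tumour lay below every muscle, and the median difference was -1.43. Ndufb10 had the lowest difference of all 39 genes. It ran from 221 through 357 to 1413 in tumours and was 4510, 3853 and 3277 in muscle. Tumours 1 and 4 read 1413 and 1231 and the other 4 read 221 to 367, and all lay below the muscles. The means were 648 ± 528 and 3880 ± 617 (SD, n = 6 and 3), a difference of -2.90 ± 0.54 (SE, adjusted p = 0.0021). Ndufb2 ran from 475 through 804 to 1209 and was 3621, 4200 and 5407 in muscle, a difference of -2.49 ± 0.36 (SE, adjusted p = 0.00034). Both genes were called in every fit that left out 1 array.

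Ndufab1 encodes the mitochondrial acyl carrier protein, which serves fatty acid synthesis as well as complex I. It ran from 398 through 1023 to 1400 in tumours and was 4608, 3323 and 2239 in muscle. The muscles were spread, yet all exceeded every tumour, and the difference was -1.80 ± 0.41 (SE, adjusted p = 0.0075), with adjusted p = 0.052 without muscle 1. Its dimmer probe sets stood at -1.09 and -0.47 and were not called, and the mean of all 3 gave -1.12. Ndufb8, often used on blots as a readout of assembled complex I, ran from 1247 through 2385 to 3518 and was 8277, 5023 and 5562. The groups did not overlap. Its difference was -1.43 ± 0.40 (SE, adjusted p = 0.022), but adjusted p was 0.12, 0.055 and 0.077 without muscle 1, 2 and 3.

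Ndufc2, Ndufc1 and Ndufa3, small membrane subunits, were the called genes nearest the threshold. Ndufc2 ran from 2283 through 5173 to 5724 in tumours and was 10733, 10430 and 10890 in muscle, a difference of -1.29 ± 0.38 (SE, adjusted p = 0.029). Ndufc1 ran from 2778 through 5616 to 9085 and was 14628, 13261 and 13553, a difference of -1.38 ± 0.41 (SE, adjusted p = 0.03). Ndufa3 ran from 1446 through 3915 to 4798 and was 10037, 7013 and 7460, a difference of -1.25 ± 0.41 (SE, adjusted p = 0.048). Every tumour was below every muscle in all 3 genes. Tumour 1 was the lowest tumour in each, although it was the highest for many other members. Each of the 3 calls was lost without muscle 1, 2 or 3: adjusted p was 0.092, 0.1 and 0.12 for Ndufc2, 0.1, 0.098 and 0.11 for Ndufc1, and 0.18, 0.11 and 0.14 for Ndufa3. It was also lost without tumour 4 (0.055, 0.058 and 0.079), for Ndufc1 and Ndufa3 without tumour 5 (0.052 and 0.059), and for Ndufa3 without tumour 2 or 3 (0.05 and 0.069). Median centring of the arrays ended the calls too (0.096, 0.081 and 0.13).

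The remaining called membrane subunits were Ndufa10, Ndufb9, Ndufb5, Ndufa8, Ndufa13, Ndufb3 and Ndufb6, with differences from -2.06 to -1.35 and adjusted p from 0.001 to 0.019. Ndufa10, Ndufb5 and Ndufa8 were called in every fit that left out 1 array. The other calls were lost without muscle 1, at adjusted p = 0.056 for Ndufb9, 0.084 for Ndufa13, 0.081 for Ndufb3 and 0.063 for Ndufb6. Without muscle 2 adjusted p was 0.075 for Ndufa13 and 0.066 for Ndufb6, and without muscle 3 it was 0.058 for Ndufa13 and 0.062 for Ndufb3. Of the uncalled membrane subunits, Ndufa1 and Ndufb11 had every tumour below every muscle, with differences of -0.97 ± 0.50 and -0.75 ± 0.36 (SE, adjusted p = 0.22 and 0.19). The probe sets of Ndufb11 disagreed in call. Its dimmest was called lower at -1.41, and another at -0.96 was not (adjusted p = 0.022 and 0.095 over all probe sets). Ndufb7 stood at -0.70 ± 0.44 and Ndufb1, a dim probe set with signals from 30 to 296, at -0.28 ± 0.62 (SE, adjusted p = 0.33 and 0.84).

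Ndufs5 varied most among the tumours. It read 892 and 1058 in tumours 1 and 4 and 59 to 229 in the other tumours, against 1046, 464 and 877 in muscle. Tumours 1 and 4 were within or just above the muscle range and the other 4 were below it, a split of the same tumours as for Ndufb10. The difference was -1.47 ± 0.74 (SE, adjusted p = 0.21). Leaving out tumours 1 and 4 together, a choice made after these values were seen and so a description, gave -2.39 (adjusted p = 0.0039).

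**Figure D2:**
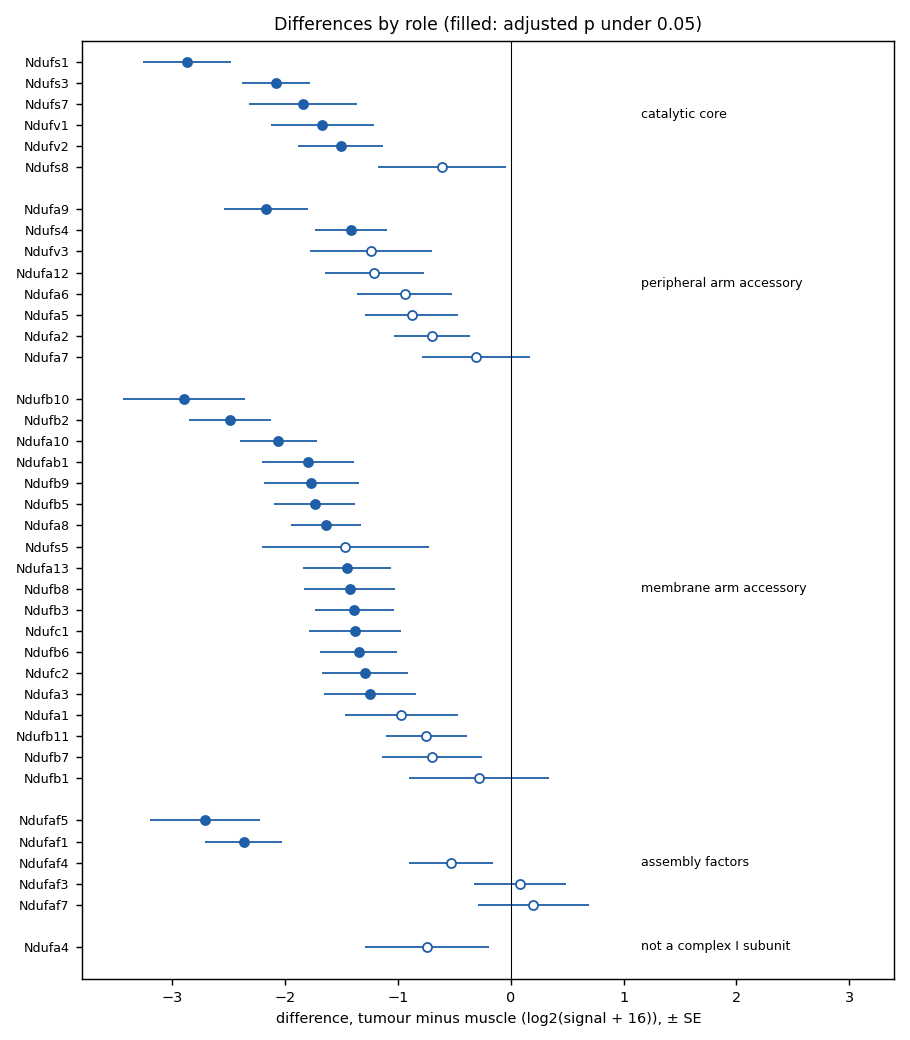
Tumour minus muscle difference in mean log2(signal + 16), with its SE, for the 39 Nduf genes grouped by role; filled points passed an adjusted p under 0.05. The 6 core genes run from -2.87 to -0.61, and only the assembly factors Ndufaf3 and Ndufaf7 lie above 0.

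Of 8 listed assembly factors named Nduf, 5 were measured, and they divided. Ndufaf5, an enzyme that hydroxylates an arginine of Ndufs7, ran from 63 through 197 to 423 in tumours and was 940, 1269 and 2047 in muscle. Ndufaf1, which acts in building the membrane arm, ran from 237 through 370 to 464 and was 1327, 2165 and 2313. Both were lower in every tumour than in every muscle and were called in every fit that left out 1 array. Their differences were -2.71 ± 0.49 and -2.37 ± 0.34 (SE, adjusted p = 0.0016 and 0.00032).

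Ndufaf3 and Ndufaf4, which act together early in assembly, and Ndufaf7, a methyltransferase, were not called. Ndufaf3 ran from 151 through 325 to 529 in tumours and was 290, 243 and 326 in muscle, a difference of 0.08 ± 0.41 (SE, adjusted p = 0.93). Ndufaf7 ran from 73 through 182 to 430 and was 190, 176 and 127, a difference of 0.20 ± 0.49 (SE, adjusted p = 0.86). In both genes the tumours lay on either side of the muscles. For Ndufaf4 the probe sets disagreed. The brighter one ran from 551 through 1279 to 1721 in tumours and was 1691, 1708 and 1549 in muscle, a difference of -0.53 ± 0.37 (SE, adjusted p = 0.4). The dimmer one ran from 120 to 242 in tumours and was 1117, 1533 and 918 in muscle, with no overlap and a difference of -2.62 (adjusted p = 0.00025 over all probe sets). Which of them follows the Ndufaf4 transcript was not tested.

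Ndufa4, the Nduf gene whose product belongs to complex IV, read 8506 in tumour 3 and 1008 to 2446 in the other tumours, against 5365, 2959 and 3026 in muscle. All tumours but 1 were below the muscles. The difference was -0.74 ± 0.55 (SE, adjusted p = 0.42), and without tumour 3 it was -1.14 (adjusted p = 0.069). Leaving Ndufa4 aside, 23 of 38 genes were called lower with a median of -1.40. Over the 33 subunits alone 21 were called lower with a median of -1.42.

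Several probe sets measured 20 of the genes. In 17 of these all probe sets had the same sign, the exceptions being Ndufa7, Ndufb9 and Ndufs8, and in 9 some probe sets were called and others were not. Over all 74 probe sets, each tested against all probe sets of the array, 34 were called lower, where 7.89% of all probe sets were, and 0 higher, where 7.80% were. Of the 74, 68 lay below 0, as did 44.6% of all probe sets. The third probe set of Ndufb9 stood at 0.48 (adjusted p = 0.46) with mean signals of 37.4 in tumours and 21.3 in muscle, far dimmer than the others. The second of Ndufc2 stood at -0.01 with mean signals of 358 and 519. The call of Ndufc2 rests on its brighter probe set, and with the mean of both adjusted p was 0.25. With the mean of all probe sets adjusted p was 0.079 for Ndufb9, and Ndufaf4 was called at -1.57 (adjusted p = 0.0019). With the median adjusted p of a gene's probe sets, each tested alone, the calls of Ndufab1, Ndufb6, Ndufb9, Ndufc1 and Ndufc2 were lost (0.075, 0.059, 0.056, 0.076 and 0.52).

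Tumour by tumour, the median Nduf gene stood at 36.5%, 32.8%, 36.2%, 41.3%, 38.3% and 32.7% of the muscle mean in tumours 1 to 6, so the tumours were close to each other at the middle of the family. On the log2 scale the Nduf median difference from the muscle mean was -1.43, -1.54, -1.27, -1.2, -1.35 and -1.58. The same median over all genes was 0.44, -0.35, 0.13, 0.25, 0.02 and 0.06. The percentages here are not corrected for these array-wide shifts, and their part in the closeness was not tested. The tumours differed in which genes departed from the family median. In tumour 1, 7 genes exceeded the muscle mean and the quartiles of the family were 25.5% and 72.2%. Tumour 6 had no gene above it. Tumour 1 was the highest tumour for 13 genes and the lowest for 10, and tumour 6 was the lowest for 10. The highest and lowest tumour differed by a median of 3.32 times per gene, from 1.74 for Ndufs3 to 17.9 for Ndufs5, and by 3.78 times over the 8919 genes at least as bright as the dimmest Nduf gene. The muscles differed by a median of 1.5 times over 3 arrays. Muscle 1 stood at a median of 116% of the muscle mean, and muscles 2 and 3 at 91.1% and 95.0%.

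**Figure D3:**
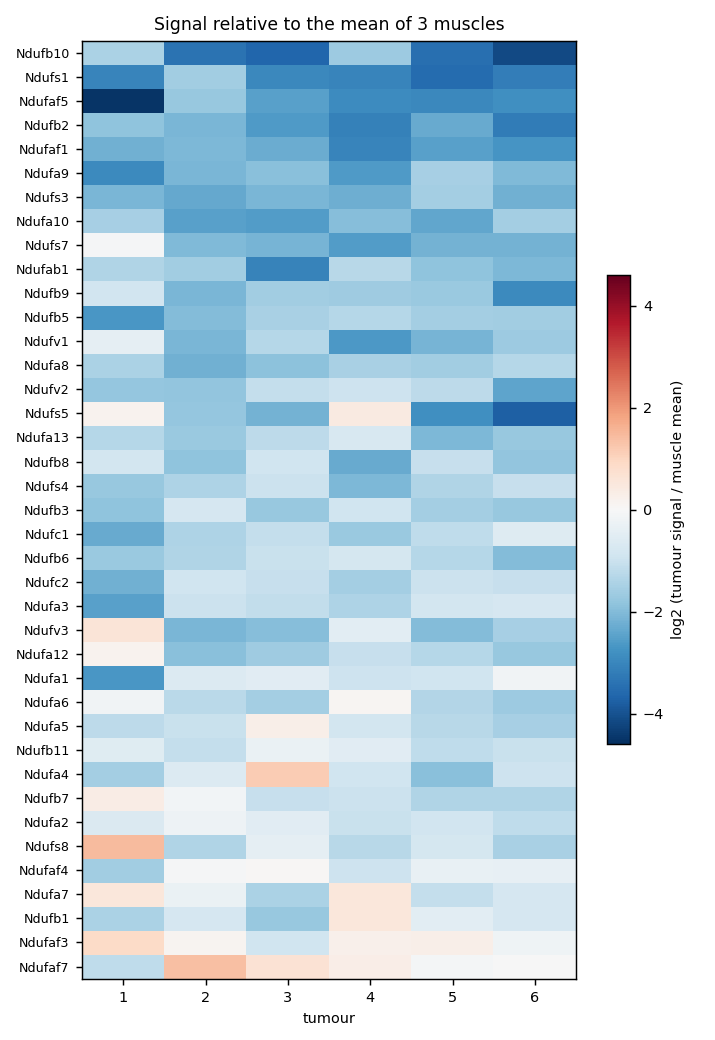
Signal of each Nduf gene in each tumour as log2 of its ratio to the mean of the 3 muscles, with genes in the order of their tumour minus muscle difference and tumours 1 to 6 in columns. Blue is below and red above the muscle mean; tumour 1 has 7 genes above it, including Ndufs8, and tumour 6 has none.

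Other features of the samples were read from marker lists and signal ratios. The summed signal of 13 muscle fibre markers was 1743 to 134377 in tumours and 218380 to 294350 in muscles, with 12 of 13 called lower, and its highest tumour was tumour 1. The median fibre marker stood at 37.9% of the muscle mean in tumour 1 and at 0.672% to 9.13% in the other tumours. The Nduf median over the tumours was 32.7% to 41.3%. Neither is corrected for the array-wide shifts given above. Macrophage markers summed to 12166 to 47050 in tumours and 4620 to 6027 in muscles, with 8 of 11 called higher. All 7 cell division markers were called higher, with sums of 9811 to 16475 and 1409 to 3060. Adipocyte markers summed to 319 to 1897 and 8951 to 11893 (5 of 6 lower), and endothelial ones to 984 to 2423 and 3077 to 4012 (1 of 8 lower). Sums of myoblast (4348 to 10190 and 3403 to 6835; 2 of 10 higher, 1 lower), fibroblast (11129 to 72611 and 34975 to 39117; 2 of 9 lower), T and NK cell (794 to 2395 and 964 to 2094; 0 of 9 called), erythroid (77 to 13322 and 470 to 1146; 0 of 3 called) and Schwann cell markers (1221 to 3555 and 1865 to 4129; 1 of 4 lower) overlapped between the groups. No marker was listed at 0. The 3' to 5' signal ratio of Gapdh, a measure of RNA integrity, was 1.93 to 9.39 in tumours and 1.68, 57.2 and 33.0 in muscles 1 to 3. The same ratio of Actb was 3.35 to 6.78 in tumours and 1.87, 4.06 and 4.35 in the muscles. The part of these features in the Nduf result was not tested.

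**Figure D4:**
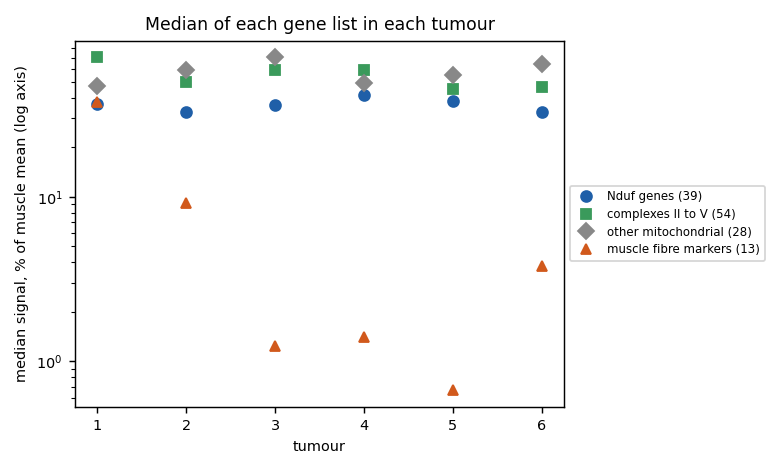
Median signal of the Nduf genes, of complexes II to V, of other mitochondrial genes and of muscle fibre markers on each tumour array, as percent of the mean of the 3 muscles. Over the tumours the fibre marker median ranges from 0.672% to 37.9% and the Nduf median from 32.7% to 41.3%. The part of fibre content in the Nduf values was not tested.

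The rest of the respiratory chain was read from lists of genes. Of 7 complex II genes 4 were called lower and 0 higher, with a median of -1.81. Sdhc and Sdhb, its membrane anchor and iron-sulfur subunits, stood at -2.46 ± 0.36 and -1.96 ± 0.33 (SE, adjusted p = 0.00035 and 0.001). Of 13 complex III genes 7 were called lower and 0 higher, with a median of -1.73, and the structural core subunits Uqcrc1 and Uqcrc2 stood at -2.70 ± 0.47 and -2.36 ± 0.33 (SE, adjusted p = 0.0013 and 0.00032). Without scaling between arrays 1 call remained in each list, that of Sdhc (adjusted p = 0.025) and that of Uqcrc1 (0.017).

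Complexes IV and V had calls in both directions. Of 18 complex IV genes 4 were lower and 2 higher, with a median of -0.36. The lower ones included Cox7a1, an isoform of heart and skeletal muscle, at -4.76 ± 0.81 (SE), and the higher ones Cox6a1, the isoform of most other tissues, at 1.62 ± 0.39 (SE, adjusted p = 0.01; 0.084 without muscle 3). Of 16 complex V genes 7 were lower and 1 higher, with a median of -1.05; the higher one was Atpif1, an inhibitor of ATP hydrolysis by the complex, at 2.85 ± 0.35 (SE, adjusted p = 0.0001). With median centring 3 complex V genes were called lower, and without scaling 0. Of 28 other mitochondrial genes 9 were lower and 0 higher, with a median of -0.67, among them Mfn2, which fuses mitochondria, at -3.02 ± 0.42 (SE, adjusted p = 0.00029). With the mean of all probe sets of a gene, Atpif1 stood at 1.54 (adjusted p = 0.0037) and Mfn2 at -1.35 (adjusted p = 0.02), and the median adjusted p of their probe sets was 0.41 and 0.37. Whether the Nduf genes differ from these lists was not tested.

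**Figure D5:**
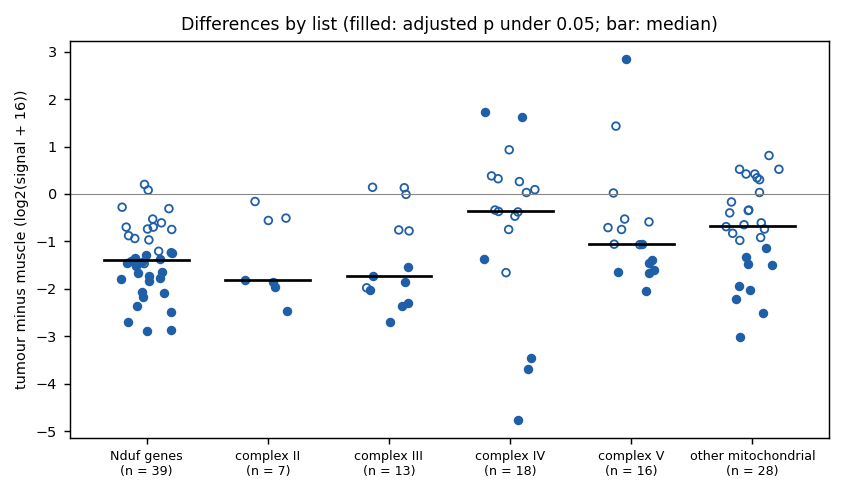
Tumour minus muscle difference in mean log2(signal + 16) of each gene of the Nduf family, of complexes II to V and of other mitochondrial genes, 1 point per gene; filled points passed an adjusted p under 0.05 and bars mark each list's median. The Nduf median is -1.39, the medians of complexes II and III are -1.81 and -1.73, and that of complex IV is -0.36.

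Complex I assembly factors with other names gave 3 lower of 11 and 0 higher, with a median of -1.18. They were Dmac2 at -2.41 ± 0.66, Ecsit, an assembly factor that also acts in innate signalling, at -1.50 ± 0.38, and Aifm1, which helps import respiratory subunits, at -1.21 ± 0.36 (SE, adjusted p = 0.02, 0.014 and 0.031). Dmac2 had adjusted p = 0.1 and 0.079 without muscle 2 and muscle 3. Ecsit had 0.08, 0.053 and 0.064 without muscle 1, 2 and 3, and Aifm1 0.084, 0.071 and 0.18. Aifm1 also had 0.057 without tumour 4, 0.052 without tumour 5 and 0.098 with median centring.

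Among 13 regulators of mitochondrial genes, 3 were called lower and 1 higher, with a median of 0.16. Ppargc1a, the coactivator that promotes mitochondrial biogenesis in muscle, stood at -1.82 ± 0.45, its partner receptor Esrra at -2.05 ± 0.41 and the fatty acid receptor Ppara at -2.27 ± 0.46 (SE, adjusted p = 0.013, 0.0035 and 0.004). The growth regulator Myc was the one called higher, at 2.01 ± 0.43 (SE, adjusted p = 0.005). The call of Ppargc1a was lost without muscle 2 or 3 and without scaling (adjusted p = 0.075, 0.062 and 0.23), and that of Esrra without scaling (0.11). The factors whose motifs were searched in the promoters were not called, except for the receptor: Nrf1 stood at 0.49 ± 0.33, Gabpa at -0.51 ± 0.48 and Yy1 at 0.17 ± 0.44 (SE, adjusted p = 0.37, 0.55 and 0.86). Also uncalled were Ppargc1b at -1.13, Pprc1 at 0.44, Esrrg at 0.13, Gabpb1 at 0.46, Ppard at 0.16 and Hif1a at 0.92. Without tumour 1, Ppargc1b was called lower at -1.41 (adjusted p = 0.0079) and Hif1a higher at 1.35 (adjusted p = 0.005). Without scaling Hif1a was called higher at 1.76 (adjusted p = 0.026). These Hif1a values belong to its chosen probe set. With the mean of all its probe sets Hif1a stood at 0.16 (adjusted p = 0.78), and the median adjusted p of its probe sets was 0.81.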

How the data were processed

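Total RNA of the samples was hybridised to 1-colour Affymetrix arrays, and the deposited values are linear signal intensities, 1 per probe set and array, made with MAS5 per the submitters' processing notes, which give no version. Of 22690 probe sets, 64 controls, 691 with several gene symbols and 1555 with none were left out, and 20380 remained for 12393 genes. All 39 Nduf symbols were matched by gene identifier to RefSeq (GRCm38.p6), with 0 differing. Arrays were rescaled to a shared 2%-trimmed mean of 500.2, the median of the arrays, since muscles 1 and 3 were deposited at 294.3 and 140.9. The probe set brightest over the 9 arrays stood for a gene. limma 3.58.1 (lmFit, eBayes with an intensity trend; R 4.3.3) was run on log2(signal + 16) over all genes with Benjamini-Hochberg adjustment and tested on simulated data. The number of arrays limits the precision. Genes given in full are those with the 6 lowest differences, the 3 nearest the threshold on each side, core subunits, a set of accessory subunits, Ndufa4, assembly factors, regulators and genes whose probe sets disagree; for other lists up to 3 called genes. Genes, lists and tests were chosen with earlier results of these data known. The alternatives were other scalings, offsets, filters, probe set rules, weights and tests, a replicate block, and leaving out arrays.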

Additional observations from a re-analysis of the deposited data

Results flagged for a closer look

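In 8 of the 39 Nduf genes 1 tumour stood apart from the other 5 by Dixon's criterion (20.5%), as in 15.1% of all genes; for normally distributed values chance would give about 1 in 20, but these are linear signals. Tumour 1 stood high for Ndufs8 (14805, next tumour 4000), Ndufs7 (8810, next 2238) and Ndufa12 (7067, next 3037), with gaps of 0.84, 0.91 and 0.75 of the whole tumour range. Tumour 3 stood high for Ndufa4 (8506, next 2446) and Ndufa5 (6366, next 2938), with gaps of 0.81 and 0.76. Tumour 2 stood high for Ndufs1 (2038, next 787; gap 0.83), tumour 5 for Ndufs3 (2119, next 1481; gap 0.71) and tumour 4 for Ndufb1 (269, next 134; gap 0.63). All 8 were high values, and most flags over the array were high too, at 14.1% of all genes. Ndufs1 and Ndufs3 in the tumours that stood apart were still below every muscle, while Ndufs8 in tumour 1 and Ndufa4 in tumour 3 exceeded every muscle.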

How the results depend on the processing

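The count of 23 Nduf genes called lower was 5 without scaling between arrays, where 86.5% of all calls were higher in tumours against 48.8% with scaling, and the median difference was -0.53. It was 12 with the replicate block (tumours 1 to 3 and muscles; 6.67% of all genes) and 11 for the same arrays without the block (5.12%). The labels do not say that replicate numbers pair samples, so the numbers were not taken as pairs. Muscle and tumour deviations of replicates 1, 2 and 3 correlated at 0.228, 0.177 and -0.018. Among tumours 1 to 3, tumour 1 matched muscle 1 best and tumour 2 matched muscles 2 and 3 best. These correlations cannot exclude pairing. Leaving out 1 array gave from 12 calls without muscle 1 (6.37% of all genes) to 26 without tumour 1 (10.9%). The lowest share of all genes, 4.90%, came without muscle 3, with 14 Nduf calls. An exact rank-sum test gave 0, since its smallest possible p is 0.0238, with 25 Nduf genes and 13.7% of all genes lower at an unadjusted p under 0.05 and a smallest adjusted p of 0.11. Under quantile normalization, median centring, other offsets, weights and probe set rules the count was 18 to 25 (6.79% to 12.0% of all genes). With only genes of at least median brightness tested it was 23 (15.7% of those genes). Across all 23 alternatives other than the rank-sum test 5 Nduf genes were always called, and 11 were called in each fit that left out 1 array. No share of all genes was set beside these counts, so they only describe the Nduf genes.

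Without scaling the calls were 1 each for assembly factors with other names, complex II, complex III and other mitochondrial genes and 0 for complex V, which had 3 with median centring. The tumour medians were then -0.58, -0.68, -0.41, -0.35, -0.50 and -0.72 for tumours 1 to 6. Of genes uncalled in the report, these changed sign, each without a call there: without scaling Ndufa2 (0.16), Ndufa4 (0.11), Ndufa7 (0.53), Ndufaf4 (0.32), Ndufb1 (0.41), Ndufb11 (0.11), Ndufb7 (0.16) and Ndufs8 (0.25), and Ndufaf3 with quantile normalization (-0.03) and without tumours 1 and 4 (-0.16). Leaving out 1 array moved Ndufaf3 from -0.08 to 0.26, Ndufaf7 from -0.03 to 0.44, Ndufa7 from -0.67 to 0.03 and Ndufb1 from -1.15 to 0.23. Low signals were not tested for detection above background.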
